A study of Rattus norvegicus with 6 samples.

Results

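Cholesterol is made in the cell, taken up with lipoproteins and exported, and 33 genes of these steps and of their regulation were described in LPS-stimulated rat microglia with and without siponimod. They were taken by gene name from the deposited count tables: the enzymes from acetyl-CoA to cholesterol, the SREBP transcription factors with their retention proteins, the LXR receptors with their efflux and uptake targets, the intracellular transporters, and the enzymes of esterification and oxysterol formation. Of the 33 genes, 32 were listed among the 23139 genes of the tables, and all 32 passed the filter on low counts that left 11977 genes for testing. Fdps (farnesyl diphosphate synthase) had no entry under that name and was not analysed here.

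The cells were primary microglia of postnatal day 1 Wistar rat cortices, shaken off mixed cultures and sorted with beads against CD11b/c. From the day after isolation they were stimulated in serum-containing medium with 100 ng/mL lipopolysaccharide (LPS, an endotoxin of Gram-negative bacteria that activates microglia) together with either 50 µM siponimod, a sphingosine-1-phosphate receptor modulator used in multiple sclerosis, or its solvent DMSO. The groups are called LPS/siponimod and LPS, with 3 biological replicates each, sequenced as poly(A)-captured mRNA. All 6 libraries received LPS, so that every value compares LPS/siponimod with LPS, and the effect of LPS itself was not measured. In LPS, the libraries of replicates 1, 2 and 3 summed to 39484979, 38301365 and 38080379 counts. In LPS/siponimod, those of the same numbers summed to 46643859, 43336006 and 38857441 counts. Cells of postnatal cortex after a mixed culture and a sort stand in only partly for microglia of the adult brain.

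As background, the SREBP factors are made as precursors that are held in the endoplasmic reticulum by SCAP and the INSIG proteins while membranes are rich in sterol. When sterol runs low, SCAP carries the precursor to the Golgi, where proteases release the active factor, which raises transcription of the synthesis enzymes and of lipoprotein uptake. The LXR receptors sense oxysterols, which accumulate with sterol, and raise transcription of the exporters ABCA1 and ABCG1 and of MYLIP, which sends lipoprotein receptors to degradation. The programmes thus answer opposite sterol states, and microglia, which take up cell debris and myelin, depend on export for the sterol they cannot break down.

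The libraries were first checked against the label. Counts of Aif1, the gene of the microglial protein Iba1, were 29943, 36455 and 32624 in LPS and 8558, 17502 and 5645 in LPS/siponimod. Counts of Itgam, which encodes CD11b, were between 35056 and 38940 in LPS and between 22392 and 25285 in LPS/siponimod. All 10 microglial markers listed passed the filter. Their summed level was 7649, 6274 and 4037 normalized CPM (counts relative to the library size after scaling by edgeR's TMM factor) in LPS and 2345, 3433 and 1728 CPM in LPS/siponimod. Of the 10, 3 were called lower (Aif1, Itgam and Cx3cr1) and none higher, with a median log2 fold change of -1.49. Without replicate 3 of both groups 2 others, C1qa and C1qb, were called lower, and Aif1, Itgam and Cx3cr1 were not (adjusted p of 0.0595, 0.0527 and 0.0630 by edgeR). With the replicate number as a block, 7 markers were called lower. In bulk samples, fewer cells of a type and less RNA per cell cannot be told apart.

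LPS replicate 3 stood apart. The correlation of its log2 CPM over genes with LPS replicates 1 and 2 was 0.935 and 0.945, against 0.983 between these 2, and genes of other cortical cells were counted in it. Olig1, a factor of the oligodendrocyte lineage, had 515 counts there against 1 and 5 in the other LPS libraries and 2, 3 and 17 in LPS/siponimod. Pdgfra, a receptor of oligodendrocyte precursors, had 284 counts there, at most 5 in the other LPS libraries and 81 in LPS/siponimod replicate 3. Map2, a neuronal cytoskeletal gene, had 162 counts in LPS replicate 3, 115 in LPS/siponimod replicate 3 and at most 3 elsewhere, and Gfap of astrocytes had 88 counts in LPS replicate 3 and at most 2 elsewhere. The defining genes of myelinating cells, Mag, Mog and Mobp, had 0 or 1 count in every library.

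Summed over the marker lists, the 6 astrocyte genes gave 2.05, 0.883 and 6.22 CPM in LPS and 1.23, 0.784 and 2.00 CPM in LPS/siponimod, with Aldh1l1 the most abundant in replicates 1 and 2 of LPS and in replicate 1 of LPS/siponimod, Gja1 in the other LPS/siponimod libraries, and Gfap (2.37 CPM, at most 0.0519 CPM elsewhere) in LPS replicate 3. The 5 neuronal genes gave 1.67, 1.04 and 11.3 CPM in LPS and 4.37, 5.85 and 15.1 CPM in LPS/siponimod, most of it Tubb3, which was called higher with the replicate block (log2 fold change 1.59, adjusted p = 0.0316 by edgeR) and without replicate 3 of both groups (1.98, adjusted p = 0.0406). The 10 oligodendrocyte genes gave 150, 136 and 147 CPM in LPS and 49.2, 67.8 and 58.7 CPM in LPS/siponimod, of which Cnp made the largest share. Of the 8 genes of endothelial cells, mural cells and fibroblasts, 7 were listed in the tables, and these gave 160, 206 and 85.4 CPM in LPS and 47.8, 82.4 and 32.9 CPM in LPS/siponimod, with Pecam1 the most abundant in LPS replicate 2 and Cdh5 in the other libraries. Against this sum, the fibroblast gene Dcn had 3, 0 and 4 counts in LPS and 456, 49 and 178 counts in LPS/siponimod and was the only gene of the list called, higher (adjusted p = 0.0155 by edgeR, and 0.0515 without replicate 3 of both groups), while with the replicate block Pecam1 and Cdh5 were also called, both lower, and without replicate 3 of both groups Col1a1 was called lower (adjusted p = 0.0488). The part of these cells in the results was not tested, and the counts of calls among the cholesterol genes and around them are also given without replicate 3 of both groups.

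In LPS/siponimod, the calls among the cholesterol genes fell on single steps rather than on whole branches. The lysosomal cholesterol exporter Npc1, the SREBP retention protein Insig1, the factor Srebf2 and the consecutive enzymes Fdft1 and Sqle were higher, while the LXR receptor gene Nr1h3 and the last-step enzyme Dhcr7 were lower. The classical LXR targets Abca1, Abcg1 and Mylip were not called, nor was any of the 6 measured enzymes of the mevalonate steps. A gene was called when edgeR's quasi-likelihood test gave a Benjamini-Hochberg adjusted p of at most 0.05 over all 11977 genes and the fold change was at least 1.5.

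By this rule 5 of the 32 genes (15.6%) were higher, beside 13.6% of all genes tested, and 2 (6.25%) were lower, beside 11.7% of all genes. The share called higher was therefore near that of the transcriptome, and the share called lower below it. The median log2 fold change was 0.01 over the 32 genes and -0.02 over all genes tested. For 9 of the 32 genes (28.1%) every LPS/siponimod library lay above every LPS library, beside 25.3% of all genes, and for 4 (12.5%) every one lay below, beside 24.0% of all genes. Without LPS replicate 2, or without LPS/siponimod replicate 1, 1 gene (3.12%, Npc1) was called higher and 0 lower, while the share of all genes called higher fell to 3.72% and 4.70% and that called lower to 1.44% and 1.52%. Without LPS/siponimod replicate 3 it was 1 higher and 1 lower, beside 6.26% and 2.24% of all genes. Without LPS replicate 1 or LPS/siponimod replicate 2 it was 4 higher (12.5%) and 1 lower (3.12%), beside 8.75% and 5.13% or 11.8% and 11.6% of all genes. With replicate 3 left out of both groups 1 (3.12%) was called higher and 2 (6.25%) lower, beside 11.1% and 8.17% of the 12032 genes tested in that fit.

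**Figure D1:**
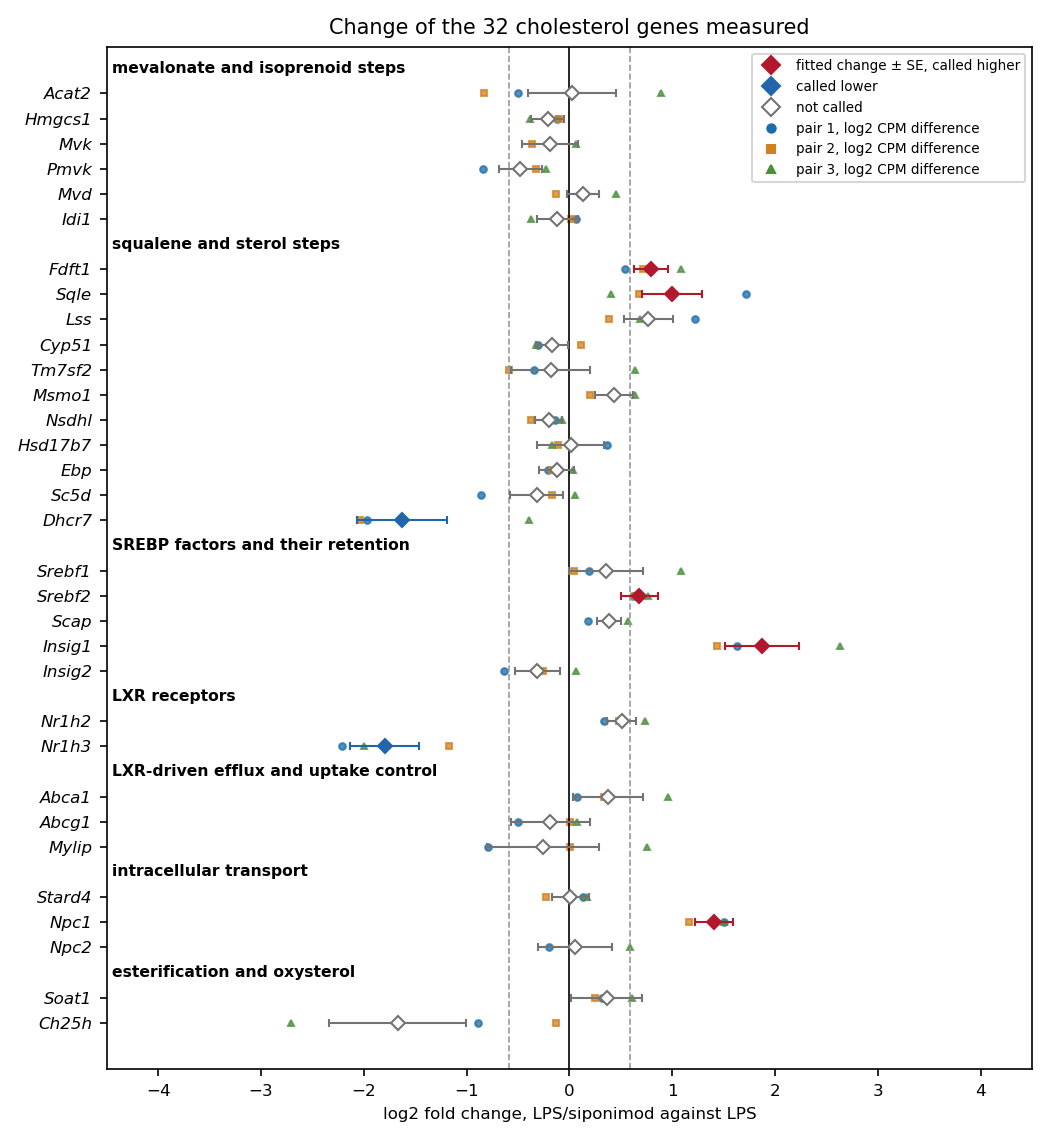
Log2 fold change of LPS/siponimod against LPS (x axis) for the 32 measured cholesterol genes (y axis, by role). Diamonds with bars are the edgeR estimate ± SE with 3 libraries per group, small symbols are the log2 CPM differences of same-numbered libraries, and dashed lines mark a 1.5-fold change. Of the 32 genes, 5 were called higher and 2 lower, and most of the others lie between the dashed lines.

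The regulators of the SREBP branch were, as far as they were called, higher in LPS/siponimod. Insig1 and Srebf2 passed the test, Srebf1, Scap and Insig2 did not. Insig1, whose product holds SCAP in the endoplasmic reticulum and which is itself a target of the SREBP factors, was at 24.4, 15.2 and 11.1 CPM in LPS and at 75.5, 41.3 and 68.9 CPM in LPS/siponimod. Every LPS/siponimod library lay above every LPS library. The change was 3.66-fold (log2 fold change 1.87, SE 0.361, adjusted p = 0.0164 by edgeR's quasi-likelihood test). It kept its direction in each of the 12 alternative analyses, but the adjusted p rose to 0.0775 without LPS replicate 2, to 0.0716 without LPS/siponimod replicate 1, to 0.0579 without LPS/siponimod replicate 3 and to 0.0558 without replicate 3 of both groups.

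Srebf2, the gene of the factor that mainly drives cholesterol synthesis, was at 43.1, 51.3 and 56.8 CPM in LPS and at 66.1, 80.0 and 96.2 CPM in LPS/siponimod. The groups did not overlap, and the differences within the same-numbered pairs were alike in size. The log2 fold change was 0.68 (SE 0.181, adjusted p = 0.0368 by edgeR). The call was kept without LPS replicate 3 (adjusted p = 0.0357) and lost when any other single library was left out, with adjusted p of 0.0931 and 0.112 without LPS replicates 1 and 2, of 0.0609, 0.0724 and 0.111 without LPS/siponimod replicates 1, 2 and 3, and of 0.0644 without replicate 3 of both groups.

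Srebf1, whose product mainly drives fatty acid synthesis and which is a target of LXR as well, was at 92.4, 68.8 and 35.1 CPM in LPS and at 105, 70.8 and 74.7 CPM in LPS/siponimod. The groups overlapped, and LPS replicate 3 was the lowest library (log2 fold change 0.35, SE 0.361, adjusted p = 0.484 by edgeR). Insig2, the second retention protein, was at 17.5, 13.0 and 10.1 CPM in LPS and at 11.2, 10.9 and 10.5 CPM in LPS/siponimod (log2 fold change -0.31, SE 0.221, adjusted p = 0.315 by edgeR). Its LPS/siponimod libraries lay close together inside the range of the LPS libraries. Scap, the sterol-sensing escort, was at 51.1, 45.8 and 46.1 CPM in LPS and at 57.9, 60.3 and 68.4 CPM in LPS/siponimod. The groups were separate, but the change was under the fold threshold (log2 fold change 0.38, SE 0.115, adjusted p = 0.0503 by edgeR).

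**Figure D2:**
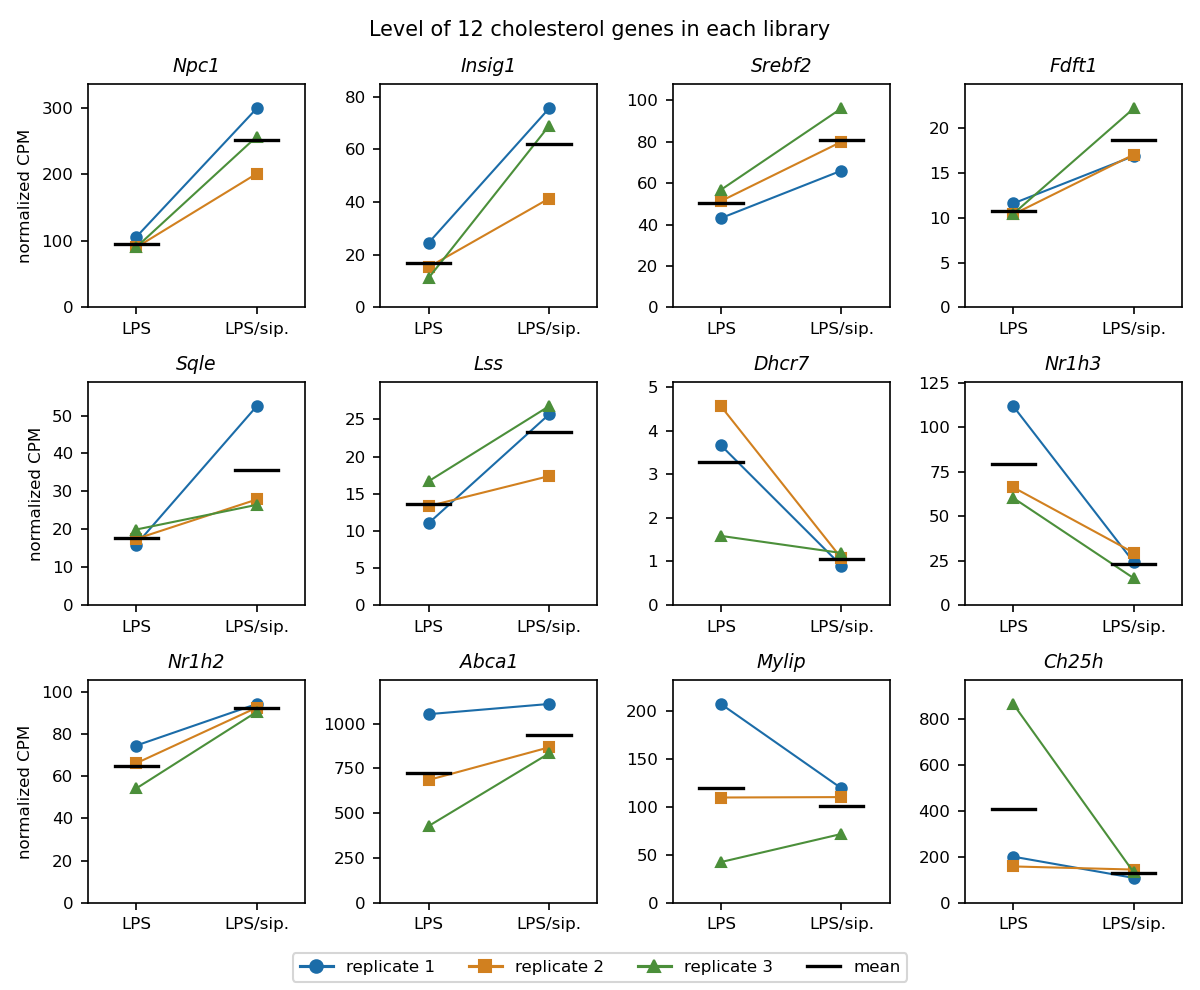
Normalized CPM (y axis, from 0) of 12 cholesterol genes in each library of LPS and LPS/siponimod (x axis; sip., siponimod). Symbols joined by lines are same-numbered replicates and black bars are the means of 3 libraries. Npc1 and Insig1 are separate between the groups, while Abca1 and Mylip overlap, and a single library, LPS replicate 3 at 865 CPM, sets the LPS mean of Ch25h.

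To let the regulators be compared with the enzymes at the level of the genome, promoter letters were read from the RefSeq table of promoters (assembly GRCr8), in which 27 of the 32 genes were found, with 2 starts for Srebf1. Pmvk, Sqle, Stard4, Fdft1 and Abcg1 were not found in it. The sequences of a pair of genes called higher (Insig1 and Srebf2) and of a pair from the synthesis branch that was not called (Hmgcs1 and Msmo1) are shown, since letters often described for SREBP targets are present in both pairs. They run 5′ to 3′ in the direction of the gene, from 250 to 51 bases before the start, and capitals mark CCAAT (the box bound by NF-Y, read as ATTGG on the other strand), CACGTG (an E-box) and matches with up to 1 mismatch to TCACNCCAC (a sterol regulatory element), each on either strand. Insig1 lies at chr4:8057820-8058019 on the minus strand, and Srebf2 at chr7:115543057-115543256, Hmgcs1 at chr2:53382054-53382253 and Msmo1 at chr16:29746863-29747062 on the plus strand.
Insig1: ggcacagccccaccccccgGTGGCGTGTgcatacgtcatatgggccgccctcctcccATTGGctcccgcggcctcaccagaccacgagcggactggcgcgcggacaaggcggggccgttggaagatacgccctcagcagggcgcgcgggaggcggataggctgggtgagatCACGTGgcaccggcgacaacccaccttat
Srebf2: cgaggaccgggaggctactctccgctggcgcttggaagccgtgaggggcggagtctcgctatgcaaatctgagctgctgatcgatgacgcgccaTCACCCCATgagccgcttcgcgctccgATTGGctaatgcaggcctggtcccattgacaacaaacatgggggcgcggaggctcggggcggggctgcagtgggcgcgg
Hmgcs1: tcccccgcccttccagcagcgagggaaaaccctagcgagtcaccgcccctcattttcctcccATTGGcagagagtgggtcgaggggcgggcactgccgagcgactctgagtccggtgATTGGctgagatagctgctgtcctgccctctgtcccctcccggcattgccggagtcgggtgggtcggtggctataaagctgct
Msmo1: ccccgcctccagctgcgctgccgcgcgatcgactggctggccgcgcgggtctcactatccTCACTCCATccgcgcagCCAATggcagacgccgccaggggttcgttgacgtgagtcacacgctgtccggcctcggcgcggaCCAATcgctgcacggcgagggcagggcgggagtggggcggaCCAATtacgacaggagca

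In these windows, Insig1 held 1 CCAAT box, 1 E-box and 1 near match to the sterol element, 193, 79 and 231 bases before the start. Srebf2 held 1 CCAAT box at 129 and 1 near match (TCACCCCAT) at 156 bases. Hmgcs1 held CCAAT boxes at 188 and 133 bases, and Msmo1 at 173, 109 and 68 bases with a near match (TCACTCCAT) at 190 bases. In the 250 bases before the start, CCAAT was present in 18 of the 27 genes (66.7%) and in 11 of the 14 synthesis genes found (78.6%), beside 34.0% of all 33469 promoters of the table. CACGTG was present in 4 of the 27 genes (Abca1, Insig1, Sc5d and Scap), beside 5.59% of all promoters. TCACNCCAC was present in none of the 27 genes and in 0.974% of all promoters, and with 1 mismatch in 10 of the 27 genes and 20.0% of all promoters. The LXR element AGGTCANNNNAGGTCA with up to 2 mismatches was present in none of the 27 genes and in 2.48% of all promoters. In Srebf1, the near match and a CCAAT box were both listed at 108 bases before a start. Their letters differ there, so they belong to different starts of the gene, and an overlap was not shown. All these promoter matches describe letters only. The starts are those of RefSeq and were not measured in these cells, and the letters were chosen after the expression values were seen.

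The mevalonate and isoprenoid steps, which lead from acetyl-CoA to the precursors of squalene and of isoprenoids, contained no called gene. Their 6 measured members had a median log2 fold change of -0.15 and ranged from -0.48 (Pmvk) to 0.13 (Mvd), with 2 above and 4 below 0, and none had separate groups. Hmgcs1, which makes HMG-CoA, was at 19.9, 23.1 and 27.8 CPM in LPS and at 18.3, 21.5 and 21.3 CPM in LPS/siponimod. The groups overlapped (log2 fold change -0.21, SE 0.164, adjusted p = 0.356 by edgeR), and the value stayed between -0.30 and -0.08 in the 12 alternative analyses. Acat2, the thiolase at the entry of the pathway, differed most between LPS/siponimod libraries, with 12.9, 12.6 and 35.5 CPM against 18.1, 22.6 and 19.1 CPM in LPS, so that its log2 fold change was 0.03 with an SE of 0.428. Pmvk, the phosphomevalonate kinase, was called lower only without LPS replicate 3 (log2 fold change -0.63, adjusted p = 0.0464 by edgeR).

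The squalene and sterol steps, from farnesyl diphosphate to cholesterol, held 2 genes called higher and 1 called lower among 11. Fdft1, the squalene synthase at the first step committed to sterols, was at 11.6, 10.4 and 10.4 CPM in LPS and at 16.9, 17.1 and 22.2 CPM in LPS/siponimod. The LPS libraries lay close together, and all LPS/siponimod libraries were above them. The change was 1.73-fold (log2 fold change 0.79, SE 0.163, adjusted p = 0.0191 by edgeR), and its adjusted p was 0.0853 without LPS replicate 2, 0.0589 and 0.0605 without LPS/siponimod replicates 1 and 3, and 0.0540 without replicate 3 of both groups.

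Sqle, the squalene epoxidase of the following step, was at 16.0, 17.4 and 19.9 CPM in LPS and at 52.5, 27.8 and 26.4 CPM in LPS/siponimod. The groups were separate, with LPS/siponimod replicate 1 far above the others. The log2 fold change was 1.00 (SE 0.292, adjusted p = 0.0470 by edgeR) and fell to 0.61 without LPS/siponimod replicate 1. The call was lost with each library left out (adjusted p from 0.0562 to 0.141), with the replicate block (0.0564), without the filter on low counts (0.0621) and without replicate 3 of both groups (0.0602). Lss, the lanosterol synthase that closes the ring of the sterol from the product of Sqle, was at 11.01, 13.3 and 16.7 CPM in LPS and at 25.7, 17.4 and 26.8 CPM in LPS/siponimod, also without overlap. It missed the threshold (log2 fold change 0.77, SE 0.236, adjusted p = 0.0537 by edgeR) and passed it with the replicate block (0.0382), with DESeq2 (0.0179), with the likelihood ratio test (0.0380), without LPS replicate 3 (0.0350) and without LPS/siponimod replicate 2 (0.0328).

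Dhcr7, which reduces the last double bond on the way to cholesterol, was at 3.67, 4.57 and 1.59 CPM in LPS and at 0.904, 1.08 and 1.20 CPM in LPS/siponimod. These levels came from 136, 176 and 59 counts in LPS and 42, 48 and 49 counts in LPS/siponimod. All LPS/siponimod libraries were below all LPS libraries, with LPS replicate 3 closest to them. The log2 fold change was -1.63 (SE 0.436, adjusted p = 0.0375 by edgeR), and the call was lost without each library except LPS replicate 3 (adjusted p between 0.0912 and 0.157 where lost, 0.0131 without LPS replicate 3) and without the filter on low counts (0.0547). The other 7 genes between Lss and Dhcr7 were not called and lay between -0.32 (Sc5d) and 0.43 (Msmo1). Msmo1, the sterol methyl oxidase, was the one of them whose LPS/siponimod libraries were all higher (adjusted p = 0.124 by edgeR), and Nsdhl, the sterol decarboxylase, the one whose libraries were all lower (log2 fold change -0.20, adjusted p = 0.282 by edgeR).

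The LXR receptors differed from each other. Nr1h3 encodes LXR alpha, the form enriched in macrophages, liver and fat, and Nr1h2 encodes LXR beta, which is expressed in most cells. Nr1h3 was at 112, 66.1 and 60.2 CPM in LPS and at 24.0, 29.3 and 15.0 CPM in LPS/siponimod. Every LPS/siponimod library lay well below every LPS library. The level fell 3.48-fold (log2 fold change -1.80, SE 0.339, adjusted p = 0.0155 by edgeR). The call was lost without LPS replicate 2 (adjusted p = 0.0561) and without LPS/siponimod replicate 1 (0.0729) and kept in the other 10 alternative analyses, among them the one without replicate 3 of both groups (0.0367).

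Nr1h2 was at 74.5, 66.1 and 54.2 CPM in LPS and at 94.2, 92.5 and 90.5 CPM in LPS/siponimod. The groups were separate, and the LPS/siponimod libraries were close to each other. The adjusted p passed (0.0422 by edgeR) but the change did not reach 1.5-fold (log2 fold change 0.51, SE 0.143), and it did so only without LPS replicate 1 (log2 fold change 0.63, adjusted p = 0.0484). The microglial markers Aif1 (log2 fold change -1.88, SE 0.404) and Itgam (-0.87, SE 0.143) fell in the same libraries as Nr1h3, and the part of such a general decrease in the value of Nr1h3 was not tested.

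The LXR targets of efflux and uptake control were not called, and their groups overlapped. Abca1, which loads cholesterol onto lipid-poor apolipoproteins, was at 1052, 685 and 428 CPM in LPS and at 1109, 868 and 834 CPM in LPS/siponimod. Each LPS/siponimod library was above its same-numbered LPS library, but the groups overlapped (log2 fold change 0.38, SE 0.341, adjusted p = 0.432 by edgeR). Abcg1, which exports cholesterol to mature lipoproteins, was at 1361, 1052 and 558 CPM in LPS and at 965, 1058 and 589 CPM in LPS/siponimod (log2 fold change -0.19, SE 0.382, adjusted p = 0.737 by edgeR). Replicate 3 was the lowest library of both groups, and the value was 0.12 without LPS replicate 1 and 0.03 without LPS/siponimod replicate 3.

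Mylip, the ubiquitin ligase of lipoprotein receptors, was at 207, 110 and 42.4 CPM in LPS and at 119, 110 and 71.7 CPM in LPS/siponimod. The LPS/siponimod libraries fell inside the range of the LPS libraries, which was 4.88-fold from the lowest to the highest (log2 fold change -0.25, SE 0.544, adjusted p = 0.747 by edgeR, and 0.41 without LPS replicate 1). None of these 3 genes was called in any of the 12 alternative analyses.

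In intracellular transport, Npc1 was called higher, and Npc2 and Stard4 were not called. Its product moves cholesterol out of the lysosomal membrane after Npc2 has bound it in the lumen, and mutations in either gene cause Niemann-Pick type C disease. Npc1 was at 105, 89.8 and 90.1 CPM in LPS and at 299, 201 and 257 CPM in LPS/siponimod, from 3348 to 3908 counts and from 8961 to 13887 counts. The LPS libraries were nearly equal, and each LPS/siponimod library was far above them. The level was 2.65-fold higher (log2 fold change 1.41, SE 0.183, adjusted p = 0.00733 by edgeR). The call was kept in all 12 alternative analyses, with adjusted p between 0.00758 and 0.0447 when a library was left out and 0.0385 without replicate 3 of both groups.

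Npc2 was at 860, 561 and 338 CPM in LPS and at 748, 573 and 507 CPM in LPS/siponimod. The groups overlapped (log2 fold change 0.06, SE 0.357, adjusted p = 0.920 by edgeR). Stard4, a soluble sterol carrier that is itself a target of SREBP2, was at 7.99, 10.3 and 7.35 CPM in LPS and at 8.74, 8.83 and 8.27 CPM in LPS/siponimod. The LPS/siponimod libraries lay within the LPS range (log2 fold change 0.01, SE 0.182, adjusted p = 0.975 by edgeR).

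Of the esterification and oxysterol genes, neither was called. Soat1, which esterifies cholesterol for storage in droplets, was at 382, 289 and 174 CPM in LPS and at 477, 344 and 265 CPM in LPS/siponimod. Each LPS/siponimod library was above its same-numbered LPS library, and the groups overlapped (log2 fold change 0.36, SE 0.344, adjusted p = 0.453 by edgeR). Ch25h, which makes 25-hydroxycholesterol, an oxysterol that blocks SREBP release and activates LXR, was at 201, 158 and 865 CPM in LPS and at 108, 145 and 132 CPM in LPS/siponimod. All LPS/siponimod libraries were below all LPS libraries, but the LPS mean of 408 CPM rested on LPS replicate 3.

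The log2 fold change of Ch25h was -1.67 (SE 0.666, adjusted p = 0.106 by edgeR), and without LPS replicate 3 it was -0.48 (SE 0.185, adjusted p = 0.0936). Ch25h was called lower with the likelihood ratio test (adjusted p = 0.0390) and with DESeq2 (0.0237), both with LPS replicate 3 included. LPS replicate 3 was also the library with the highest counts of Olig1, Gfap and Map2 (Map2 had 115 counts in LPS/siponimod replicate 3 too), and their part in this value was not tested.

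**Figure D3:**
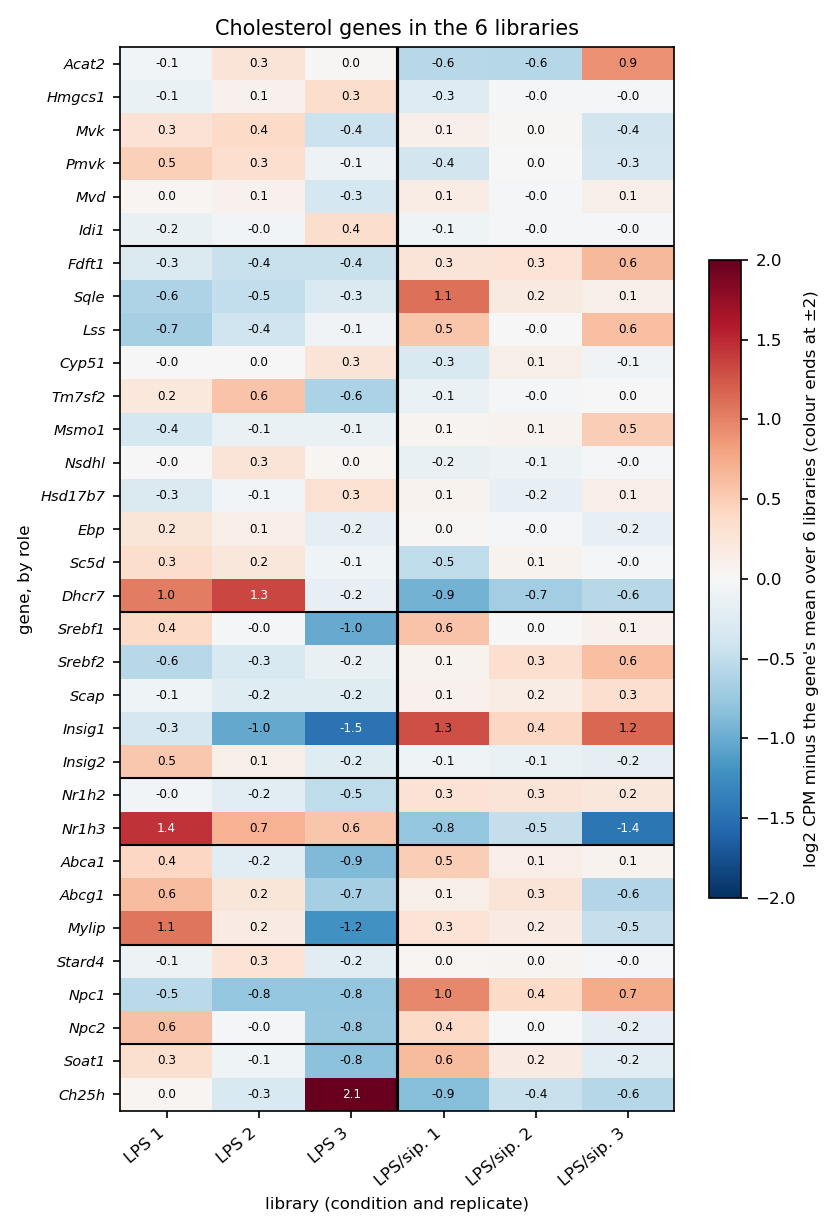
Log2 CPM minus the mean over the 6 libraries (colour and number in each cell) for the 32 cholesterol genes (rows, in order of role) in the 3 LPS and 3 LPS/siponimod libraries (columns). Insig1, Npc1 and Nr1h3 change colour at the border of the groups, while Abca1, Abcg1, Mylip, Npc2 and Soat1 are lowest in LPS replicate 3 among the LPS libraries.

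As branches, SREBP-driven synthesis and LXR-driven efflux and transport both stayed near 0 as a whole. Of the 17 synthesis enzymes measured, 2 were called higher and 1 lower, beside 13.6% and 11.7% of all genes, 7 had a log2 fold change above and 10 below 0, and the median was -0.12. Of the 5 genes grouped as LXR-driven efflux and transport (Abca1, Abcg1, Mylip, Npc1 and Npc2), 1 was called higher and 0 lower, and the median was 0.06. The gene called was Npc1, not one of the classical LXR targets Abca1, Abcg1 and Mylip, and its control by LXR was not tested. Without replicate 3 of both groups, 0 synthesis enzymes were called higher and 1 lower, and 1 efflux and transport gene higher and 0 lower, beside 11.1% and 8.17% of all genes. Within the same-numbered pairs 1, 2 and 3, the median difference of log2 CPM was -0.14, -0.13 and 0.05 for synthesis and -0.20, 0.03 and 0.76 for efflux and transport. The direction of the efflux median thus differed between the pairs, and it lay between -0.22 (without LPS replicate 3) and 0.45 (without LPS replicate 1) when a library was left out. A difference between the branches was not tested.

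The branches differed in how much they varied among LPS libraries. The highest LPS library was 2.46-fold above the lowest in the median of the 5 efflux and transport genes, 1.36-fold in the median of the 17 synthesis enzymes and 1.46-fold in the median of all genes tested. All 5 efflux and transport genes were highest in LPS replicate 1, and 4 were lowest in LPS replicate 3, while 34.8% of all genes tested were highest in LPS replicate 1 and 41.5% lowest in LPS replicate 3. Npc1 was the exception, with a range of 1.17-fold in LPS. For the other 4, the range of the LPS libraries was larger than the difference between the groups, and it was so for 12 of the 17 synthesis enzymes (70.6%) and for 53.6% of all genes tested. These ranges describe 3 libraries, of which LPS replicate 3 had the highest counts of Olig1, Gfap and Map2.

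Around these genes, 10 further lists of cholesterol and lipid metabolism were described. Of their 91 genes, 88 were in the tables and 83 were tested, of which 11 (13.3%) were called higher and 6 (7.23%) lower, beside 13.6% and 11.7% of all genes. Without replicate 3 of both groups, 6 (7.41%) were higher and 6 (7.41%) lower of 81 tested, beside 11.1% and 8.17% of all genes, and with the replicate block 14 (16.9%) were higher and 12 (14.5%) lower of 83, beside 17.7% and 16.4% of all genes. Among the genes called higher, the enzymes Soat2 and Elovl6 and the receptor Olr1 changed most, from very low or low levels in LPS. The adjusted p of edgeR without replicate 3 of both groups is given beside the named genes that lost their call in that fit.

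Among 13 tested fatty acid genes driven by SREBP1, 2 were called higher and none lower, with a median log2 fold change of 0.16. Fads1 and Fads2, the desaturases of polyunsaturated fatty acids, were called lower without replicate 3 of both groups (log2 fold change -1.63 and -4.48, adjusted p = 0.0331 and 0.0295 by edgeR), and Acss2, the acetyl-CoA synthetase (-2.06, adjusted p = 0.00565 by edgeR), and Fads2 (adjusted p = 0.0388) with the replicate block. Fads2 had 46, 52 and 62 counts in LPS and only 2, 3 and 28 counts in LPS/siponimod. Elovl6, an elongase of long-chain fatty acids, had 8, 3 and 27 counts in LPS and 413, 266 and 389 counts in LPS/siponimod, without overlap (log2 fold change 4.57, SE 0.764, adjusted p = 0.0117 by edgeR). Me1, the malic enzyme that supplies NADPH, rose as well (log2 fold change 1.57, SE 0.252, adjusted p = 0.0108 by edgeR). Of 4 further SREBP2 targets, 1 was called lower, Erg28, a scaffold of the sterol demethylation enzymes (log2 fold change -0.72, SE 0.183, adjusted p = 0.0537 without replicate 3 by edgeR), and none was called higher. Of 12 genes of SREBP maturation and of sterol-regulated degradation, 2 were called higher, Spring1, which licenses the SREBP protease (0.77, SE 0.204, adjusted p = 0.101 without replicate 3 by edgeR), and the ubiquitin ligase Syvn1 of the endoplasmic reticulum (0.71, SE 0.122).

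Of 5 tested further LXR targets, none was called, and the median log2 fold change was -0.60. Smpdl3a, a phosphodiesterase, ranged from 4952 to 24995 counts in LPS and from 13349 to 39955 counts in LPS/siponimod, and Pltp, the phospholipid transfer protein, from 22603 to 56444 and from 13392 to 34587 counts. In both genes the groups overlapped and replicate 3 was the lowest library of each group. With the replicate block, 3 of the 5 genes were called. Pltp was lower (log2 fold change -0.85, SE 0.168, adjusted p = 0.0186 by edgeR), with pair differences of -1.03, -0.63 and -0.90, and so was Lpcat3, a phospholipid acyltransferase (-0.68, SE 0.168, adjusted p = 0.0330). Arl4c, a small GTPase, was higher (1.06, SE 0.182, adjusted p = 0.0133), with pair differences of 0.87, 0.87 and 1.44. Among 4 LXR partners and corepressors, Rxrb, a partner of both receptors (log2 fold change 0.73, SE 0.135), and the corepressor Ncor1 (0.61, SE 0.131) were called higher, with adjusted p of 0.0571 and 0.0679 by edgeR without replicate 3.

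Of 6 tested genes of sterol ester storage and hydrolysis, 2 were called higher and 1 lower. Soat2, the second esterification enzyme, had 1, 1 and 0 counts in LPS and 97, 62 and 66 counts in LPS/siponimod. Against a floor of 3 counts per LPS library, the mean level in LPS/siponimod was at least 21.2-fold higher, a bound that covers counting error only. Pnpla2, the triglyceride lipase of lipid droplets, was higher (log2 fold change 0.75, SE 0.179), and Nceh1, a hydrolase of cholesterol esters, was lower (-1.04, SE 0.263), with adjusted p of 0.0811 and 0.0849 by edgeR without replicate 3. Plin2, the coat protein of lipid droplets, was called higher with the replicate block (0.66, adjusted p = 0.0248 by edgeR).

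In lipoprotein and scavenger uptake, 1 of 7 tested genes was called higher and none lower. This was Olr1, a receptor of oxidized lipoprotein, with 585, 138 and 84 counts in LPS and 4897, 2472 and 7148 counts in LPS/siponimod (log2 fold change 3.95, SE 0.870, adjusted p = 0.0230 by edgeR, and 0.0596 without replicate 3). The lipoprotein receptor Lrp8 was called higher with the replicate block (1.52, adjusted p = 0.0271 by edgeR). Of 16 sterol transfer proteins, 1 was called higher and 2 lower. Osbp, which brings cholesterol to the Golgi, was higher (log2 fold change 0.86, SE 0.142), and Stard5 (-1.11, SE 0.288) and Scp2 (-0.77, SE 0.205), carriers of sterols in the cytosol and in peroxisomes, were lower, Stard5 with an adjusted p of 0.0532 by edgeR without replicate 3. Tspo, a cholesterol-binding protein of the outer mitochondrial membrane, was called lower with the replicate block (-1.14, adjusted p = 0.0268 by edgeR), and Osbpl10 lower without replicate 3 (-4.26, adjusted p = 0.0334). Osbpl10 had 17, 19 and 13 counts in LPS and 1, 1 and 16 counts in LPS/siponimod. Its value thus rested on 1 count in each LPS/siponimod library kept, and the replicate 3 pair left out showed no decrease.

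The isoprenoid branches, which use the mevalonate products for prenylation, dolichol and ubiquinone, held 2 genes called lower among 12 tested. These were Coq2 of ubiquinone synthesis (log2 fold change -0.84, SE 0.212) and Zmpste24, a protease of prenylated proteins (-0.71, SE 0.127, adjusted p = 0.0577 without replicate 3 by edgeR). Pdss1, of the ubiquinone side chain, was called lower with the replicate block (-1.22, adjusted p = 0.0192 by edgeR). Of 4 tested genes of oxysterol metabolism and sensing, none was called, with a median log2 fold change of -0.20. Cyp27a1, which makes 27-hydroxycholesterol, had 951, 405 and 56 counts in LPS and 1463, 974 and 701 counts in LPS/siponimod, and the groups overlapped.

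**Figure D4:**
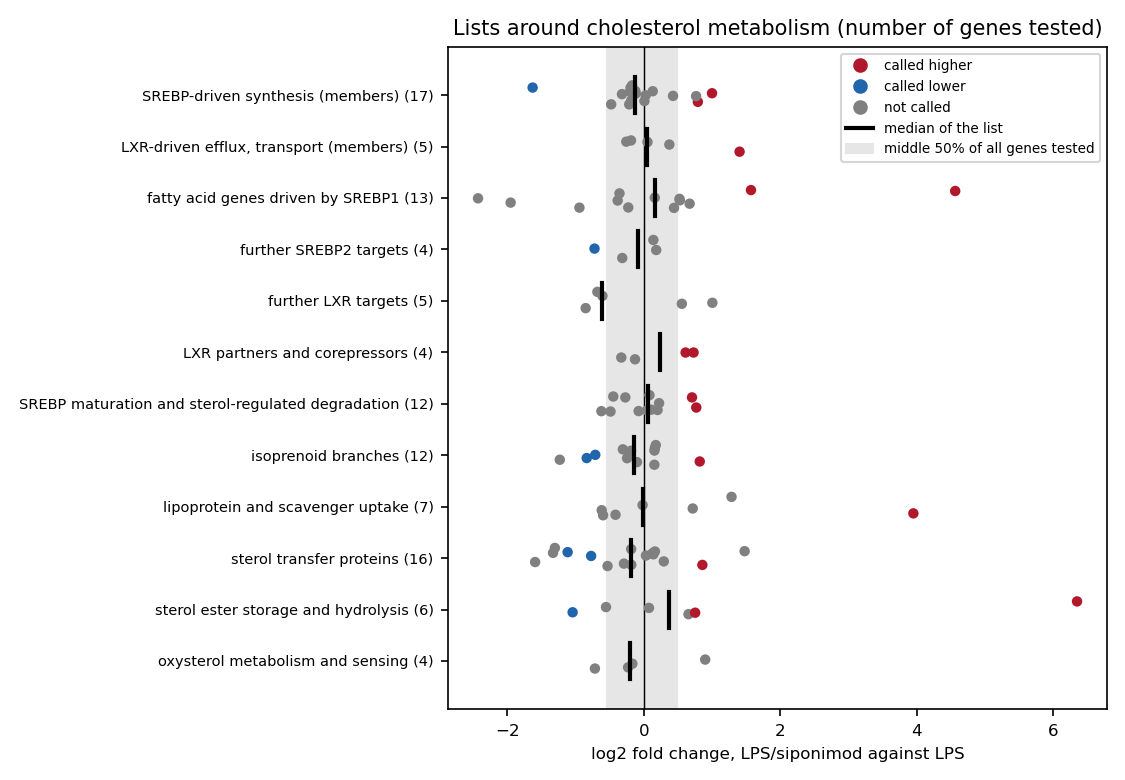
Log2 fold change of LPS/siponimod against LPS (x axis) of each tested gene in SREBP-driven synthesis, LXR-driven efflux and transport and 10 further lists (y axis, with the number of genes tested). Points are genes, black lines are medians, and the grey band holds the middle 50% of all genes tested. The points of Soat2, Elovl6 and Olr1 lie far to the right, the fitted value of Soat2 resting on 1, 1 and 0 counts in LPS, and all medians but that of the further LXR targets lie inside the band.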

How the data were processed

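After conversion with bcl2fastq (2.20.0.422), the authors trimmed and mapped the reads against mRatBN7.2 in the CLC Genomics Workbench and deposited 1 table of total counts per gene for each of the 6 libraries, without normalization. Handling of strand and of reads matching several genes, and the stimulation time of the sequenced cells, are not given in the sources used here. Near-identical or overlapping genes therefore have uncertain values. Total counts ranged from 38080379 to 46643859 per library.

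Counts were analysed in R (4.3.3) with edgeR (4.0.16). Genes were kept by filterByExpr (minimum count 10, minimum total 15) and normalized by TMM. The condition was tested by glmQLFit and glmQLFTest, with Benjamini-Hochberg adjustment over 11977 genes. The SE is the size of the log2 fold change divided by the square root of F. An exact permutation test of 3 against 3 libraries cannot go below p = 0.10 and was not used. The procedure was tested on simulated data with changes larger than most of those reported here. Smaller changes are recovered less often, so that a gene not called is not shown to be unchanged.

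The genes, lists and tests were chosen with earlier results of these data known. Per-library values were given for called genes and for 15 preset genes, and called genes of further lists by smallest p, except that some items of the lists are not reported here. Lss, Scap, Msmo1, Nsdhl, Acat2, Pmvk, Npc2, Smpdl3a, Cyp27a1, genes of further lists called only in an alternative, and the marker genes named outside this rule were chosen after their values were seen, as were the promoter letters and windows.

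Same-numbered libraries deviated together from their group means (correlation over genes 0.420, 0.545 and 0.611, other pairs -0.534 to 0.086), so that the numbers pair the libraries by these values, not by the labels. Alternatives were RLE, DESeq2 (1.42.0), a likelihood ratio test in edgeR, the filter relaxed to 1 count, the replicate block, each library left out, and, added after seeing the data, replicate 3 left out of both groups, which makes 12.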

Additional observations from a re-analysis of the deposited data

How the results depend on the processing

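With RLE, DESeq2, the likelihood ratio test and the replicate block, the numbers of cholesterol genes and of synthesis enzymes called stayed within 1.5 times the reported ones. The replicate block gave 5 cholesterol genes called higher and 2 lower (with Lss in place of Sqle), and 2114 and 1960 of all genes, and changed no other call among the 32 genes. Of the 83 genes of the further lists, 11 were called lower with DESeq2 and the likelihood ratio test and 12 with the replicate block. Without a filter beyond 1 count, 1 cholesterol gene was called lower, and 1 synthesis enzyme was higher and 0 lower. With each library left out, 469 to 1941 of all genes were called higher and 182 to 1772 lower. Of the cholesterol genes, 1 to 5 were then higher and 0 to 3 lower, and of the synthesis enzymes 0 to 2 and 0 to 2, and of the further lists 2 to 12 and 0 to 9. The log2 fold change then changed sign for 8 genes, none of them called: Stard4 (-0.086 to 0.18), Abcg1 (-0.47 to 0.12), Mylip (-0.66 to 0.41), Acat2 (-0.64 to 0.27), Npc2 (-0.22 to 0.45), Idi1 (-0.20 to 0.056), Tm7sf2 (-0.45 to 0.12) and Hsd17b7 (-0.11 to 0.20). With replicate 3 left out of both groups, 1335 of all genes were called higher and 983 lower, 1 cholesterol gene and 0 synthesis enzymes were called higher, and Stard4 was at -0.057. These fits have fewer libraries; why each call was lost was not tested. TMM put the median log2 fold change over all genes at -0.021, RLE and DESeq2 at -0.018. Npc1 was called in all 12 alternatives.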
